A study of Drosophila melanogaster with 2 samples.

Results

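Candidate peaks of schlank on chromosome 4 of Drosophila melanogaster were described in 4 peak lists, by taking every entry whose deposited chromosome was chr4. Chromosome 4 held 483 of 30000 candidates in replicate 1 and 74 of 30000 in replicate 2. It held 176 of 30000 candidates in the list made from both replicates pooled, and 11 of the 2790 peaks in the thresholded set. The study was a ChIP-seq experiment on whole embryos of mixed sex, 0 to 24 h old, taken from flies with a stable transgene for schlank carrying a C-terminal GFP. Its 2 biological replicates, 1 library each, form a single group, and both come from that line. Chromatin had been sonicated to 200 to 800 bp, per the labels. The antibody field of both libraries names schlank, whereas their free-text description calls them input controls. They were treated as ChIP libraries by the antibody field, and this conflict in the labels applies to every value given here.

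schlank is the ceramide synthase of the fly, which makes the backbone of sphingolipids in membranes. The protein also contains a homeodomain, the DNA-binding fold of homeotic proteins. Chromosome 4, the dot chromosome, is the smallest chromosome of the fly. It is rich in transposable elements and packed largely in heterochromatin-like chromatin, yet its genes include active housekeeping genes and regulators of development. INE-1 and 1360 are DNA transposon families with many copies there. A ChIP-seq peak list gives intervals where sequenced fragments piled up. A candidate list is made deliberately long, so that it holds background as well as peaks, as input for IDR, a method that keeps peaks ranked alike in replicates. The summit is the base of highest pile-up in an interval.

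The sequences under 8 of the 11 thresholded peaks are shown first, so that the base composition and short sequences of the strongest peaks can be read directly. Each is the + strand of assembly dm6, 5′ to 3′, within 100 bp of the summit, from NCBI Release 6. The RpS3A window was trimmed to 132 bases to leave out annotated UTR, and the 3 thresholded summits that lay inside UTRs are not shown. Capitals mark matches on either strand to 6 short sequences: TAATTA and TAATGA, 2 core sequences bound by many homeodomains, GAGAG, the repeat bound by GAGA factor, TATCGAT, the core of the element bound by DREF, TATAAA, the TATA box, and CACACA, a simple repeat.
zfh2 upstream site, chr4:497802-498002: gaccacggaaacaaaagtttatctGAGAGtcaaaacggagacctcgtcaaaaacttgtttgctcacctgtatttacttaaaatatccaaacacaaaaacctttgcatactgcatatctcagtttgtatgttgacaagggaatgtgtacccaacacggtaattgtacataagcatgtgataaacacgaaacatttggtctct
RpS3A promoter, chr4:67208-67339: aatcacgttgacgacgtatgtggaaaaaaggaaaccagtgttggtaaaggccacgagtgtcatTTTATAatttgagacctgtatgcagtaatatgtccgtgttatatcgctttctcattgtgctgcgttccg
gw promoter, chr4:659996-660196: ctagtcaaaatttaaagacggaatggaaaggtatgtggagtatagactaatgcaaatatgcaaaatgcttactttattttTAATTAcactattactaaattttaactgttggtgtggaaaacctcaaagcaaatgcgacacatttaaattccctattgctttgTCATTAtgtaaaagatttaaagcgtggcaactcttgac
PlexA promoter, chr4:1027156-1027356: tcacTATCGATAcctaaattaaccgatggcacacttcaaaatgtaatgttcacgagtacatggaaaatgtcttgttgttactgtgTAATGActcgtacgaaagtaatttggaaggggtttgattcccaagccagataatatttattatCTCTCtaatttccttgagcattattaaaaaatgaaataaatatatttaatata
site between dati and lgs, chr4:424714-424914: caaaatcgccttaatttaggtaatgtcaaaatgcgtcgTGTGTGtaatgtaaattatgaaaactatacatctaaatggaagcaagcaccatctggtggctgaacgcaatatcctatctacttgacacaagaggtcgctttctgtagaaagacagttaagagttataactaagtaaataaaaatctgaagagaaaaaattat
Asator upstream site, chr4:489429-489629: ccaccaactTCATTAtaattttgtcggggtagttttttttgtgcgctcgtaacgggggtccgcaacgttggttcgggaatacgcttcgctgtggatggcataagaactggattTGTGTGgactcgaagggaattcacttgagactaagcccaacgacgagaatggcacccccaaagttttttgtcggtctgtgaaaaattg
fuss upstream site, chr4:982860-983060: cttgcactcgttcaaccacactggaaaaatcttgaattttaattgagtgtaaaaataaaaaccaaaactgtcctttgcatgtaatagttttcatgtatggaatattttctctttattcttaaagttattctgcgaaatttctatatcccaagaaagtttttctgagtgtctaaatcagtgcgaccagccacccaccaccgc
CG33978 coding exon, chr4:167651-167851: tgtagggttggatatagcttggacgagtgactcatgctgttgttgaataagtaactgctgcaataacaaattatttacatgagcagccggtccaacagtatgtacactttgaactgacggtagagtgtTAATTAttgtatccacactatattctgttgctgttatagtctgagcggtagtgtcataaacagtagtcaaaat

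The 8 sequences shared no single short sequence. TAATTA lay under gw and CG33978, and TAATGA under gw, PlexA and Asator. TATCGAT lay only under PlexA, where its 2 overlapping matches formed the palindrome TATCGATA. GAGAG lay under zfh2 and PlexA, CACACA under Asator and the site between dati and lgs, and TATAAA under RpS3A. The fuss sequence held none of the 6. GC content ran from 30.4% at PlexA to 47.3% at Asator. A match describes the letters and does not show that a protein bound them.

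The strongest thresholded peak of chromosome 4 lay in the intergenic stretch between Asator, a kinase gene, and zfh2, which encodes a homeodomain and zinc-finger transcription factor. Its summit at chr4:497902 was 3908 bp upstream of the zfh2 TSS. Its deposited signal, a strength assigned by the authors' peak caller in units that are not stated, was 341.8 in the pooled list, where it ranked 462 of 30000. Replicate 1 listed it with a signal of 164.9 at rank 193, and replicate 2 with 164.0 at rank 968. The summits of the replicates lay 1 bp apart. Signal scales differ between the lists, so signals were compared within a list and only ranks were set side by side between lists.

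The next pair of peaks lay at the convergent ends of sv and Cals, where the 3′ UTRs of both genes overlap. sv (shaven) encodes a Pax2-family transcription factor and Cals encodes calsyntenin, a cadherin-like protein of synapses. The pair had pooled signals of 300.7 at chr4:1113112 and 271.7 at chr4:1113313. Their intervals, chr4:1112987-1113134 and chr4:1113131-1113494, overlapped, so they are neighbouring summits of 1 locus. Replicate 1 had a single summit at 1113294 with a signal of 104.7, rank 494. Replicate 2 had a single summit at 1113092 with a signal of 261.4, its strongest on the chromosome at rank 400. The replicates therefore placed the summit 202 bp apart, just beyond the 200 bp within which summits were counted as shared.

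Of the thresholded peaks, 4 were at promoters, meaning a summit within 500 bp of an annotated transcription start site (TSS). RpS3A, which encodes a protein of the small ribosomal subunit, had a summit 32 bp upstream of its TSS with a pooled signal of 295.5, and signals of 81.9 in replicate 1 (rank 777) and 215.3 in replicate 2 (rank 593). The replicate 2 summit fell on the TSS itself, at 67207. PlexA, which encodes a semaphorin receptor of axon guidance, had a summit 155 bp upstream of its TSS with a pooled signal of 209.4, at rank 895 in replicate 1 and rank 1345 in replicate 2. The other promoters were those of gw and CaMKI. gw (gawky) encodes the GW182 protein of miRNA-mediated silencing, and its summit at chr4:660096 had a pooled signal of 221.5 and lay 113 bp upstream of an internal TSS. CaMKI encodes a calcium- and calmodulin-dependent kinase, and its summit at chr4:446159 had a pooled signal of 129.2, the weakest of the 11, and lay 66 bp downstream of an internal TSS of the gene, which starts at 445504.

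Another 3 thresholded peaks were intergenic. A summit at chr4:424814, between dati and lgs, lay 1253 bp upstream of the long non-coding RNA gene lncRNA:CR43437 and had a pooled signal of 184.8. dati encodes a zinc-finger regulator needed in the nervous system and lgs (legless) the BCL9 homologue of Wnt signalling. Asator, a tau-tubulin kinase homologue of the mitotic spindle, had a summit 535 bp upstream of its TSS with a pooled signal of 181.5, at rank 2673 in replicate 1 and rank 1305 in replicate 2. The summit between fuss and toy had a pooled signal of 135.6 and lay 4471 bp upstream of fuss, which encodes a Ski/Sno-family regulator. toy encodes a Pax6 transcription factor. The remaining peak, at chr4:167751 with a signal of 133.9, lay in a coding exon of CG33978.

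**Figure D1:**
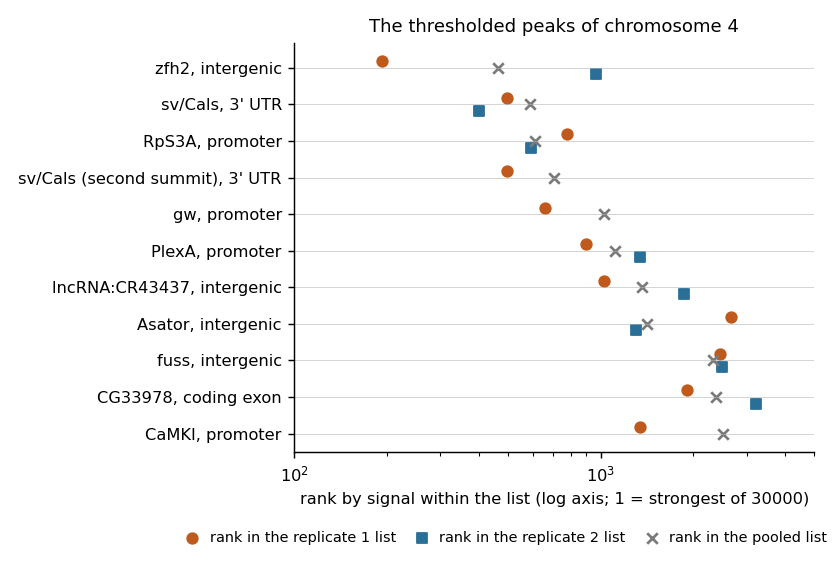
Rank of the 11 thresholded peaks of chromosome 4 by deposited signal within the replicate 1, replicate 2 and pooled candidate lists (x axis, log scale, 1 is the strongest of 30000), ordered from the strongest pooled signal at the top, with the nearest gene and annotation class. Every peak has a replicate 1 rank, from 193 to 2673, and 3 peaks, at gw, CaMKI and the second sv/Cals summit, have no replicate 2 summit within 200 bp.

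All 11 thresholded peaks had a replicate 1 candidate within 200 bp, and 8 had a replicate 2 candidate. The 3 without one in replicate 2 were gw, CaMKI and the second summit at sv and Cals. The nearest replicate 2 summit lay 221 bp away at sv and Cals, 826 bp away at gw, where it had rank 10321, and 6478 bp away at CaMKI. At sv and Cals that summit had rank 400 and was matched to the first peak of the pair, so replicate 2 did list this locus. Both peaks of the pair were matched to the same replicate 1 summit. On the other arms 10 of 2779 thresholded peaks (0.360%) were matched in replicate 1 but not in replicate 2, and 137 (4.93%) in replicate 2 but not in replicate 1.

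The thresholded set held 11 of the 176 pooled candidates of chromosome 4, 6.25% (exact 95% Clopper-Pearson interval 3.16 to 10.9%), beside 9.3% of all pooled candidates. The interval includes the share of the whole list. Intervals of this kind cover counting error over listed sites only, not variation between embryos. The thresholded set consisted of the 2790 strongest pooled candidates with the same intervals and signals, so its lower edge is a step in signal. The weakest members inside it on chromosome 4 were CaMKI at 129.2, CG33978 at 133.9 and the fuss site at 135.6. The strongest outside it were the promoter of CG31999 at 110.6, an intronic summit of the antisense RNA asRNA:CR43957 near ci at 107.3, and the Asator promoter at 100.3. The summit near ci was matched in replicate 1 only, at rank 20894. ci (cubitus interruptus) encodes the transcription factor of Hedgehog signalling. Among thresholded peaks the median signal was 209.4 on chromosome 4 and 183.1 on the other arms, while the strongest peak of the set, at 2915, was elsewhere.

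As a ratio, the share of the list on chromosome 4 differed between the replicates more than that on any other arm. Chromosome 4 made up 1.01% of the length of the 6 arms. It held 1.61% of the replicate 1 list (interval 1.47 to 1.76%), 0.247% of the replicate 2 list (0.194 to 0.310%), 0.587% of the pooled list (0.503 to 0.680%) and 0.394% of the thresholded set (0.197 to 0.704%). Replicate 1 therefore listed 6.53 times as many chromosome 4 candidates as replicate 2. The same ratio was 1.05 on 2L, 0.892 on 2R, 1.03 on 3L, 0.941 on 3R and 1.03 on X. Per Mb, replicate 1 had 358.3 candidates on chromosome 4 and 222.7 on the other arms, and replicate 2 had 54.9 on chromosome 4 and 225.8 on the other arms.

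Replicate 1 exceeded replicate 2 on chromosome 4 at every rank, least among the strongest candidates. Among the 2790 strongest candidates of each list, chromosome 4 had 15 in replicate 1, 7 in replicate 2 and 11 in the pooled list. Among the strongest 5000 it had 46 in replicate 1 and 10 in replicate 2. Among the strongest 10000 these were 139 and 18, and among the strongest 20000 they were 324 and 50. By rank within each list, the strongest 10% held 16 chromosome 4 candidates in replicate 1 and 7 in replicate 2, ranks from 10 to 40% held 161 and 15, ranks from 40 to 70% held 172 and 32, and ranks from 70 to 100% held 134 and 20. The chromosome 4 candidates of replicate 1 had a median rank at 51.7% of the list and those of replicate 2 at 54.2%, where 0% is the strongest. In the pooled list the median rank was at 61.9%.

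**Figure D2:**
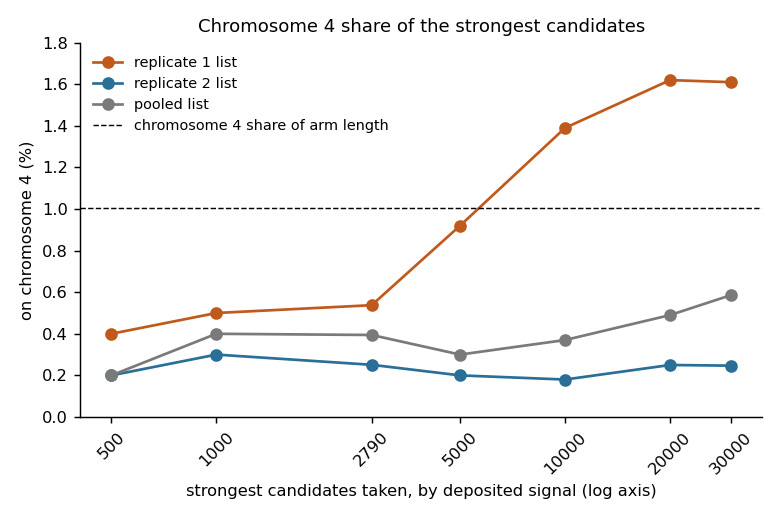
Percent of candidates on chromosome 4 (y axis) among the strongest 500 to 30000 entries (x axis, log scale) of the replicate 1, replicate 2 and pooled lists, with the chromosome's 1.01% share of arm length as a dashed line. The replicate 1 line crosses that share between the strongest 5000 and 10000 and reaches 1.61%, while the replicate 2 line ends at 0.247%.

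Few chromosome 4 candidates of replicate 1 were found again in replicate 2. Of 483 replicate 1 candidates, 28 had a replicate 2 summit within 200 bp, 5.80% (interval 3.89 to 8.27%), beside 37.2% of all replicate 1 candidates. Of 74 replicate 2 candidates, 27 had a replicate 1 summit within 200 bp, 36.5% (25.6 to 48.5%), beside 37.3% of all replicate 2 candidates. Seen from replicate 2, chromosome 4 was thus matched about as often as the rest of the list. The replicate 2 share was not adjusted for the density of replicate 1, 358.3 candidates per Mb on chromosome 4 and 222.7 on the other arms. The small number of replicate 2 candidates on the chromosome also limits how many of the 483 could be matched.

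Seen from replicate 1, the shortfall was present at every rank. With 74 replicate 2 candidates on the chromosome against 483 in replicate 1, the counts alone limit the shares below the strongest 10%. In the strongest 10% of the replicate 1 list, 8 of 16 chromosome 4 candidates were matched, against 90.3% of those on the other arms. At ranks from 10 to 40% of the list, 10 of 161 (6.21%) were matched on chromosome 4 and 48.4% on the other arms. At ranks from 40 to 70% the shares were 2.33% and 26.9%, and at ranks from 70 to 100% they were 4.48% and 20.2%. In replicate 2 the strongest 10% held 7 chromosome 4 candidates, of which 6 were matched (85.7%, against 85.8% on the other arms). At ranks from 10 to 40%, 9 of 15 were matched, against 48.4%. At ranks from 40 to 70% it was 8 of 32, against 27.0%, and at ranks from 70 to 100% it was 4 of 20, against 20.3%. The strongest replicate 1 candidate with no replicate 2 match other than those in the thresholded set was at the Hcf promoter (signal 44.8, rank 2368). Hcf encodes a host cell factor homologue of chromatin complexes. It was followed by the promoter of myo (myoglianin, a TGF-β ligand; signal 44.7, rank 2380).

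The pooled list, made from the same replicates and so not independent of them, showed the same imbalance. Of its 176 chromosome 4 candidates, 28 were matched in both replicates (15.9%, against 38.0% on the other arms), 86 only in replicate 1 (48.9%, against 15.6%), 27 only in replicate 2 (15.3%, against 39.1%) and 35 in neither (19.9%, against 7.30%). From the other side, 115 of the 483 replicate 1 candidates (23.8%) and 54 of the 74 replicate 2 candidates (73.0%) had a pooled summit within 200 bp.

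Candidates were spread along the chromosome, and the excess of replicate 1 was present wherever both lists had entries. The arm was divided into 14 bins of 100 kb from its centromere side, the last of them 48131 bp long. Replicate 1 had between 26 and 56 candidates in each of the first 12 bins, 8 in bin 13 and none in bin 14. Replicate 2 had between 1 and 16 in the first 12 bins and none in the last pair. The ratio of replicate 1 to replicate 2 ran from 3.50 in bin 5 to 34 in bin 3. In each of the 12 bins of chromosome 4 with at least 10 entries in the 2 lists together, replicate 1 had at least 3 times as many as replicate 2. The same was so of 24 of 1137 such bins on the other arms (2.11%). Bin 14, at the telomere side, is 95.4% annotated transposable element, and bin 13 holds 17000 unsequenced bases.

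**Figure D3:**
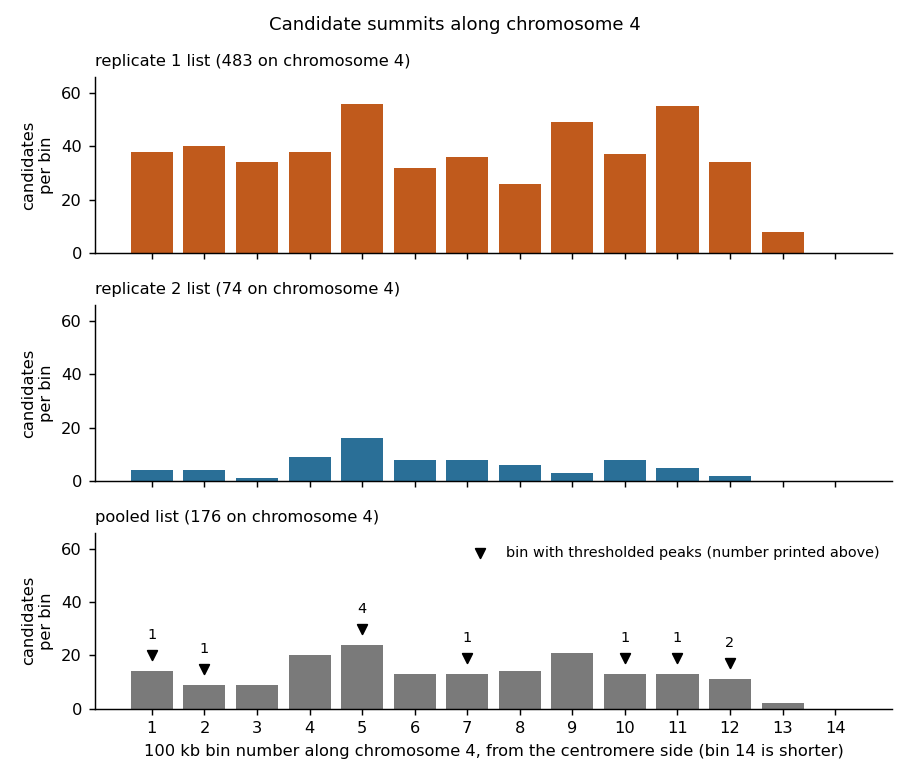
Candidate summits of the replicate 1, replicate 2 and pooled lists per 100 kb bin along chromosome 4 (x axis, bin number from the centromere side), with triangles and printed numbers for the thresholded peaks. Bin 5 is the highest in all 3 lists at 56, 16 and 24 candidates and holds 4 of the 11 thresholded peaks.

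Bin 5 was the densest bin in every list. It held 56 replicate 1, 16 replicate 2, 24 pooled and 4 thresholded summits, and it included the sites between dati and lgs, at CaMKI, upstream of Asator and upstream of zfh2. Thresholded peaks fell in 7 of the 14 bins. Their longest gap, 322864 bp, ran from gw to the fuss site. It spanned ey (eyeless, a Pax6 gene), bt (bent, which encodes a giant muscle protein), Sox102F and unc-13. The pooled list was not empty there and had 21 candidates in bin 9. Neighbouring summits lay a median of 1593 bp apart in replicate 1. The median was 4007 bp for replicate 2 and 3357 bp for the pooled candidates.

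By annotation, chromosome 4 candidates lay in coding exons more often than candidates elsewhere. In the pooled list 41 of 176 summits (23.3%, interval 17.3 to 30.3%) fell in coding exons outside promoters, against 5.97% on the other arms. In replicate 1 the share was 16.2% on chromosome 4 and 4.34% on the other arms, and in replicate 2 it was 32.4% on chromosome 4 and 8.55% on the other arms. Coding exons took up 18.9% of chromosome 4 and 13.9% of the other arms. On chromosome 4 the replicate 1 share was below the share of length, and its exact interval, 12.98 to 19.74%, included it, as did that of the pooled share. The interval of the replicate 2 share, 22.0 to 44.3%, lay above it. Elsewhere the shares of all 3 lists were below the share of length. In the thresholded set only the CG33978 peak of chromosome 4 was in a coding exon, beside 5 of 2779 peaks elsewhere.

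Introns showed the reverse in replicate 2. Introns held 17.6% of replicate 2 summits on chromosome 4 and 41.2% on the other arms, and 40.6% of replicate 1 summits on chromosome 4 and 43.4% on the other arms. They took up 42.7% of the chromosome. No thresholded peak of chromosome 4 was intronic, against 34.9% of those on the other arms, and with 11 peaks the exact interval for that 0 reaches 28.5%. Summits in 3′ UTRs numbered 35 in replicate 1 and 1 in replicate 2. The ratio of replicate 1 to replicate 2 was 3.25 in coding exons (78 and 24), 4.94 at promoters (89 and 18), 4.69 in intergenic sequence (75 and 16), 15.1 in introns (196 and 13) and 35 in 3′ UTRs. On chromosome 4 the GC content of these classes was 41.6% in coding exons, 33.8% in promoters, 37.7% in intergenic sequence, 32.6% in introns and 29.6% in 3′ UTRs. On the other arms, where coding exons had a GC content of 53.6%, the ratio ran from 0.50 in coding exons to 1.68 in 3′ UTRs.

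**Figure D4:**
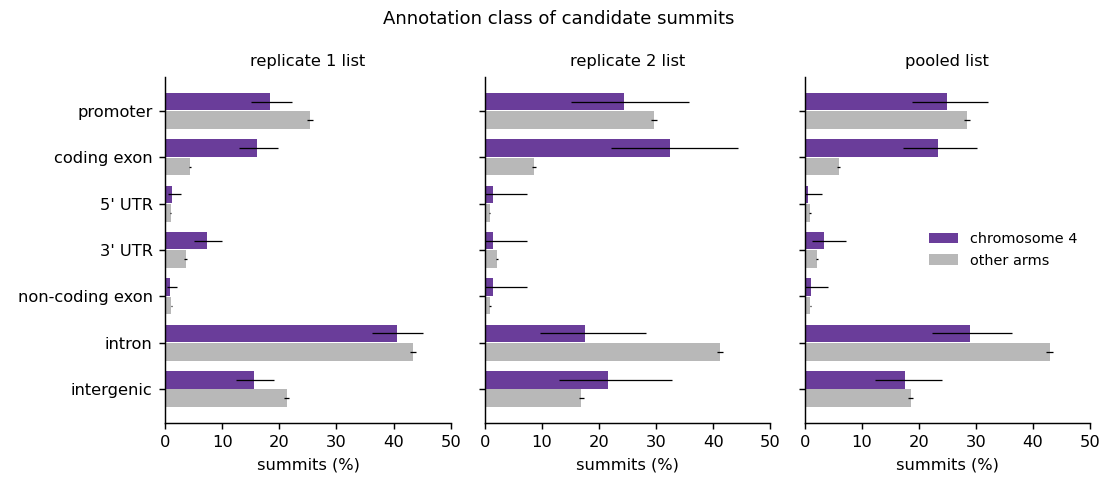
Percent of summits (x axis) in each of 7 annotation classes on chromosome 4 and on the other arms, for the replicate 1, replicate 2 and pooled lists, with exact 95% intervals as error bars. Coding exons hold 23.3% of pooled summits on chromosome 4 and 5.97% on the other arms, and introns hold 17.6% of replicate 2 summits on chromosome 4 and 41.2% on the other arms.

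Promoters held 18.4% of replicate 1 summits on chromosome 4 and 25.4% on the other arms. In replicate 2 they held 24.3% on chromosome 4 and 29.6% on the other arms, and in the pooled list 44 of 176 (25%) on chromosome 4 (18.8 to 32.1%) and 28.4% on the other arms. In the thresholded set the share was 4 of 11, 36.4% (10.9 to 69.2%), on chromosome 4 and 52.8% on the other arms, which the interval includes. Promoter windows took up 10.7% of chromosome 4 and 13.6% of the other arms. Of the 44 pooled promoter summits, 27 lay upstream of the nearest TSS and 17 downstream.

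Counted by gene, the replicates differed as they did by candidate. Of the 80 protein-coding genes of chromosome 4, 48 (60.0%) had a replicate 1 candidate within 500 bp of a TSS, 11 (13.8%) a replicate 2 candidate, 30 (37.5%) a pooled candidate and 4 (5%) a thresholded peak. On the other arms the shares were 43.4% in replicate 1, 48.8% in replicate 2, 47.9% in the pooled list and 12.8% in the thresholded set. The promoters marked in both replicates were those of 10 genes: Asator, CG31999, CG33978, PlexA, RpS3A, Sox102F, ci, dati, pan and sv. At ci and CG33978 the nearest TSS belonged to an antisense RNA gene, asRNA:CR43957 or asRNA:CR45198, and the lists cannot tell these starts apart. At ci, pan and sv the replicate 2 promoter summit had no replicate 1 summit within 200 bp, so these 3 genes were marked at different positions in the replicates. The 10 genes made up 20.8% of the replicate 1 genes, beside 13.8% of all 80 genes marked in replicate 2. They made up 90.9% of the replicate 2 genes, beside 60.0% of all 80 genes marked in replicate 1. The same overlap is not given here for the other arms. Arl4, which encodes an Arf-like GTPase, was marked in replicate 2 and not in replicate 1. Neither replicate marked the promoters of 31 genes. Only Arf4, CG46466, Crk, Zip102B and yellow-h had no candidate at a promoter or inside the gene in any list.

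Grouped by role, genes of transcription and chromatin held 5 of the 11 promoters marked in replicate 2. Of 15 such genes, 11 had a replicate 1 candidate at a promoter, 5 a replicate 2 candidate (ci, dati, pan, Sox102F and sv), 10 a pooled candidate and 1 (gw) a thresholded peak. gw was placed in this group although its product acts in miRNA-mediated silencing. No other gene of the group had a thresholded peak at a promoter. Among all 80 coding genes, 48 had a promoter candidate in replicate 1, 11 in replicate 2 and 30 in the pooled list, and 4 had a thresholded peak. At ci, pan and sv the replicate 2 promoter summit had no replicate 1 summit within 200 bp, and at ci the nearest TSS was that of asRNA:CR43957. pan (pangolin) encodes the TCF factor of Wnt signalling and Sox102F a Sox-family factor. Counting candidates at a promoter or anywhere in the gene, 14 of the 15 had one in replicate 1, 10 in replicate 2 and 14 in the pooled list. Over all 80 coding genes these were 73 in replicate 1, 27 in replicate 2 and 46 in the pooled list, so most genes of any role had a replicate 1 candidate. These genes of transcription and chromatin are long, with a median of 18198 bp against 10090 bp over all 80 coding genes, and long genes offer more room for a candidate. The highest counts in the pooled list were those of Sox102F and zfh2, with 10 candidates each, and dati, with 8, and they are not scaled by length. dati also had 7 in replicate 2 and 9 in replicate 1. pan had 21 in replicate 1, 1 in replicate 2 and 4 in the pooled list.

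Signalling genes numbered 10, of which 5 had a replicate 1 candidate at a promoter, 2 (Asator and PlexA) a replicate 2 candidate, 4 a pooled candidate and 1 (PlexA) a thresholded peak. Asator had 18 candidates at a promoter or inside the gene in replicate 1, 4 in replicate 2 and 7 in the pooled list. The pooled promoter candidates also included mav (maverick, a TGF-β ligand), at a signal of 93.8, where the nearest TSS was that of mir-954. Neither replicate listed a summit within 200 bp of that one. Of 13 housekeeping and metabolic genes, 10 were marked at a promoter in replicate 1, 2 (RpS3A and Arl4) in replicate 2, 4 in the pooled list and 1 (RpS3A) in the thresholded set. The pooled 4 included Tdg and Pur-alpha, which shared 1 summit, and apolpp, which shared its summit with the cytoskeleton gene Zyx. Over all 80 coding genes the promoter counts were 48 in replicate 1, 11 in replicate 2, 30 in the pooled list and 4 in the thresholded set. The promoter shared by ATPsynbeta, the β subunit of ATP synthase, and CG11076 had a signal of 32.7 in replicate 1 and no candidate in replicate 2 or the pooled list.

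Of 9 nerve cell genes, 4 had a replicate 1 candidate at a promoter, none a replicate 2 candidate, and 1 (Syt7, a synaptotagmin of vesicle fusion) a pooled candidate. With 11 of all 80 coding genes marked in replicate 2, the absence among 9 does not set these genes apart. All 9 had a replicate 1 candidate at a promoter or inside the gene, and 3 had one in replicate 2, close to the share over all genes (73 and 27 of 80). unc-13, which encodes a protein that primes synaptic vesicles, held 20 replicate 1, 2 replicate 2 and 4 pooled candidates. CaMKII, a kinase of synaptic plasticity, held 10 in replicate 1 and none in the other lists. Of 4 muscle and cytoskeleton genes, 2 were marked at a promoter in replicate 1, none in replicate 2 and 2 in the pooled list, beside 48, 11 and 30 of all 80 coding genes. The longest, bt, held 13 replicate 1, 3 replicate 2 and 7 pooled candidates. The role lists give counts and hold 51 of the 80 genes.

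Base composition differed between the replicates on chromosome 4 and moved with the difference in numbers. The chromosome has a GC content of 35.3%, against 42.2% for the other arms. Within 100 bp of the summit, GC averaged 34.9 ± 6.24% in replicate 1 (SD over 483 summits) and 42.7 ± 6.41% in replicate 2 (74 summits) on chromosome 4. On the other arms it averaged 39.8% in replicate 1 and 44.6% in replicate 2. The thresholded peaks of chromosome 4 averaged 36.3 ± 5.30%, and those of the other arms 38.5%.

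The ratio of replicate 1 to replicate 2 candidates fell with rising GC on chromosome 4 and on the other arms, and was higher on chromosome 4 in every GC range that gave one. On chromosome 4 there were 109 replicate 1 candidates under 30% GC and none in replicate 2. From 30 to 35% there were 157 and 10, a ratio of 15.7, against 1.92 on the other arms. From 35 to 40% there were 129 and 16, a ratio of 8.06, against 1.31. From 40 to 45% the ratio was 3 on chromosome 4 (57 and 19) and 0.920 on the other arms, and at 45% or more it was 1.07 on chromosome 4 (31 and 29) and 0.535 on the other arms. The other arms had 6 bins of 100 kb with at least 10 entries and a GC content within the range of the chromosome 4 bins. They held 117 replicate 1 and 75 replicate 2 candidates, a ratio of 1.56, and none reached 3. The GC content of these bins ran from 35.05 to 37.52%, against 33.27 to 37.7% on chromosome 4. The chromosome 4 bins of lower GC therefore had no counterpart in this comparison. The part of base composition in the difference between replicates was not tested further.

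**Figure D5:**
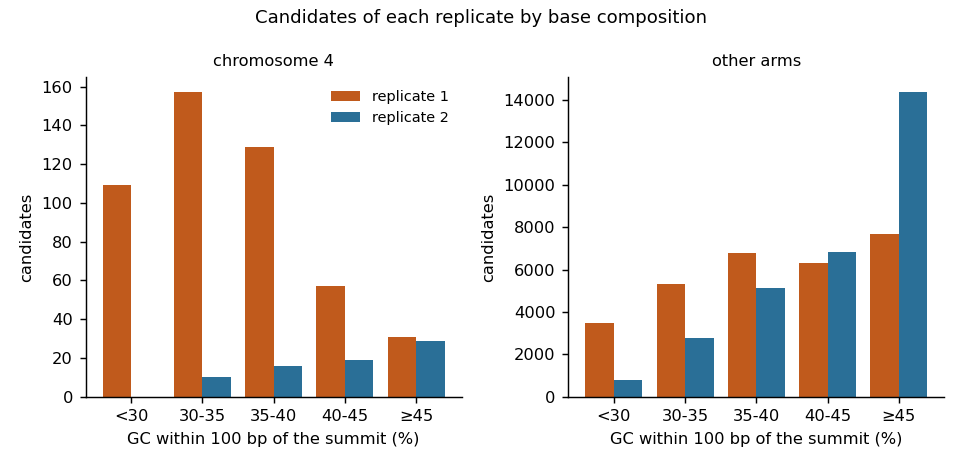
Number of replicate 1 and replicate 2 candidates (y axes, on different scales) by GC content within 100 bp of the summit (x axis), on chromosome 4 and on the other arms. On chromosome 4 replicate 1 exceeds replicate 2 in every range, from 109 against none under 30% GC to 31 against 29 at 45% or more, while on the other arms replicate 2 exceeds replicate 1 from 40% GC upward.

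Repeats moved with the same difference, and their part in it was not tested beyond the counts given here. Soft-masked bases, which the genome file marks as repetitive or of low complexity, made up 29.1% of the sequence within 100 bp of replicate 1 summits on chromosome 4, 9.36% at replicate 2 summits and 11.6% at thresholded summits, against 27.8% of the whole arm. Where under 10% of that window was masked, replicate 1 had 100 candidates and replicate 2 had 47, a ratio of 2.13, against 0.616 on the other arms. Where 10 to 30% was masked the ratio was 8.48 (178 and 21), against 1.11. Where 30% or more was masked it was 34.2 (205 and 6), against 2.18 on the other arms.

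Annotated transposable elements covered 24.8% of chromosome 4 in 566 copies, and 5.74% of the other arms. They held 95 replicate 1 summits on chromosome 4 (19.7%, against 0.593% on the other arms), 3 replicate 2 summits (4.05%, against 0.194%), 17 pooled summits (9.66%, against 0.275%) and none of the 11 thresholded summits. INE-1 accounted for most of those in replicate 1 and in the pooled list. Its 344 copies covered 7.22% of the chromosome and held 71 replicate 1 summits (14.7%), 1 replicate 2 summit and 10 pooled summits. None of the 71 had a replicate 2 summit within 200 bp, beside 28 of all 483 replicate 1 candidates of chromosome 4 (5.80%). At that share few of 71 would be matched. The strongest INE-1 summit of replicate 1 had rank 2538 and lay 2091 bp upstream of fuss. The 60 copies of 1360 held 10 replicate 1 summits and no replicate 2 summit. With summits in all annotated elements left out, replicate 1 kept 388 candidates on chromosome 4 and replicate 2 kept 71, a ratio of 5.46.

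Of the 6 short sequences, TATCGAT alone was over 2 times as frequent under replicate 1 summits as along the chromosome. It lay within 100 bp of 56 of the 483 replicate 1 summits (11.6%), against 5.20% of 6621 windows of 201 bp tiled along chromosome 4. On the other arms it lay under 3.72% of replicate 1 summits and in 2.53% of tiled windows. Of the 71 summits in INE-1 copies, 26 held it (36.6%). Outside transposable elements 29 of 388 summits (7.47%) did. How often TATCGAT occurs in INE-1 sequence at large, or outside elements, was not counted, so these shares have no background of their own. TAATTA lay under 14.5% of replicate 1 summits, 13.5% of replicate 2 summits, 11.9% of pooled summits and 3 of the 11 thresholded summits, against 14% of tiled windows. TATAAA, rich in A and T like the chromosome, lay under 37.5% of replicate 1 and 24.3% of replicate 2 summits, against 38.4% of tiled windows. Windows under neighbouring summits can share bases.

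In both replicates the matched candidates of chromosome 4 ranked higher than the unmatched ones and had fewer masked bases. Their mean GC was higher than that of the unmatched ones in replicate 1 and lower in replicate 2. The 28 matched candidates of replicate 1 had a mean GC of 39.96 ± 7.09% (SD), 12.6% masked bases, 1 summit in a transposable element and a median rank at 29.7% of the list. The 455 unmatched candidates had a mean GC of 34.6 ± 6.05%, 30.1% masked bases, 94 summits in transposable elements and a median rank at 52.8%. In replicate 2 the 27 matched candidates averaged 41.2 ± 6.58% GC and 6.91% masked bases, with 1 summit in a transposable element and a median rank at 37.03%. Its 47 unmatched candidates averaged 43.6 ± 6.20% GC and 10.8% masked bases, with 2 such summits and a median rank at 60.95%. In each replicate the GC means of matched and unmatched candidates differed by less than the SD over summits, which does not measure the error of a mean. Among the 27 replicate 2 candidates with a replicate 1 match, the summits lay a median of 56 bp apart, and 17 ranked higher in replicate 1 and 10 in replicate 2.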

How the data were processed

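Peak lists of 2 biological replicates, in dm6 positions per the labels, were analysed. Read depth is unknown. The aligner, the caller and the cutoff applied to IDR are not given in the sources. The authors' signal values, deposited without units, were used to order entries inside each list. The authors' −log10 q-values reach a ceiling in every list (3.57 in the pooled list), so they gave no order. Summits were placed by adding the deposited offset to the start of each interval. The control named in the deposited file lists was not used here. Annotation was Ensembl release 115 (BDGP 6.54), and sequence was NCBI Release 6, whose arm names and lengths fit dm6. Summits were given 1 of 7 classes in the order promoter (500 bp), coding exon, 5′ UTR, 3′ UTR, non-coding exon, intron, intergenic. Transposable elements and unnamed annotation entries were left out of the gene counts. Named genes are those with a thresholded summit at a promoter or inside the gene, those nearest to the 10 strongest pooled and 5 strongest replicate candidates, and members of 5 role lists. Genes beyond that rule were picked with values in view. The members and lists were chosen with earlier results of these data known. Peaks are not replicates and there is 1 group, so no test was run: values are counts, percentages and exact 95% intervals, computed with Python 3.11.15, pandas 2.3.3 and scipy 1.17.1 and tested on simulated data. Alternatives were other promoter windows, matching distances and rank limits, and each replicate left out.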

Additional observations from a re-analysis of the deposited data

How the results depend on the processing

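No paired analysis was possible because the libraries form 1 group and no test was run. Of 35 alternative values 26 stayed inside the exact interval of the value they replaced. With each replicate left out in turn, the list of the remaining replicate standing in for the pooled list, the share of chromosome 4 candidates among the strongest 2790 ran from 3.11% (15 of 483, replicate 1 alone) to 9.46% (7 of 74, replicate 2 alone), beside 6.25%. The share of the thresholded set on chromosome 4 ran from 0.251% to 0.538% in the same way, and its promoter share from 28.6% to 46.7%. Promoter windows of 250 and 1000 bp gave 18.2% and 34.1% of pooled summits and 12.4% and 27.5% of replicate 1 summits at promoters. On the other arms they gave 20.5% and 40.6% of pooled summits and 17.4% and 36.4% of replicate 1 summits. Matching within 500 bp found 9.32% of replicate 1 and 55.4% of replicate 2 candidates of chromosome 4 again, against 51.4% and 51.5% on the other arms. Among the 2790 strongest of each replicate, matching within 200 bp found 40% (6 of 15) of replicate 1 and 85.7% (6 of 7) of replicate 2 candidates, against 59.5% and 59.8%. The cause of these shifts was not tested beyond the change of window, distance or list itself. Alternatives chosen after seeing the data were counting summits within 250 bp once, which left 10 thresholded peaks, and leaving out transposable elements, which gave 6.96% and 36.6% matched. Ranking by −log10 q could not be run because of its ceiling. With 11 thresholded peaks and 74 replicate 2 candidates, intervals on chromosome 4 are wide.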
